A study of Schizosaccharomyces pombe with 9 samples.

Results

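The messenger RNAs of 31 enzymes that make amino acids and purines in fission yeast (Schizosaccharomyces pombe) were followed in libraries of RNA recovered with Clr3. Clr3 is the histone deacetylase of SHREC, a complex known for silencing heterochromatin. The genes were chosen by name, as enzymes of the lysine, arginine, histidine, leucine, methionine, glutamate and adenine pathways together with thr1, ilv1 and ilv5, and 31 of 31 names were found among the 5113 nuclear protein-coding genes of the annotation. A member site is a called position on the sense strand inside the annotated gene. Of 6560 nuclear sites in crosslinked replicate 1, 105 were member sites; of 4742 in crosslinked replicate 2, 66 were; and without crosslinking 3 of 127 were.

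In PAR-CLIP, cells take up 4-thiouracil, light links the labelled RNA to protein, and reverse transcriptase reads a linked 4-thiouridine as C, so that a T-to-C conversion marks a contact. The groups were 2 crosslinked libraries and 1 library titled as made without crosslinking. All 3 came from a single genotype: h+ mating type, ura4-delta18 with a ura4+ copy placed at imr1R(NcoI) in a centromere, the markers leu1-32 and ade6-M216, and clr3 tagged as clr3-3HA-TAP beside kan MX. Cells of all 3 grew at 30 °C in minimal medium with 10 mg/l uracil and 4% glucose, with 100 µM 4-thiouracil at the start and 900 µM more for the last 4 h. The crosslinked cells received 12 J/cm2 at 365 nm, and the protocol text attached to the control is the same, so that only its title and the series design mark it as not crosslinked. Untagged cells were not sampled, so RNA held by Clr3 and RNA held by another protein on the beads cannot be told apart. Another 6 samples, 3 wild type and 3 seb1-1 cultures measured by RNA-seq, were not analysed here.

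Amino acid and purine synthesis in yeasts is carried out by soluble enzymes, many of them abundant in cells growing in minimal medium. Glutamate and glutamine supply most of the nitrogen, methionine synthase closes the methyl cycle that feeds S-adenosylmethionine, and the adenine pathway builds the purine ring on a ribose phosphate. The strain carries mutant alleles of 2 of the 31 genes: leu1-32 makes cells need leucine and ade6-M216 makes them need adenine. The leu1 and ade6 values are thus of mutant genes, placed on the sequence of the wild type.

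Each file lists called positions only, so how deeply a library was sequenced is unknown. Nuclear conversions numbered 18539 for crosslinked replicate 1, 10672 for crosslinked replicate 2 and 885 for the control. Positions with 1 conversion all had 3 reads. They numbered 3401 and 3093 in the crosslinked libraries, mitochondrial ones included, and 0 in the control. Control counts of sites and genes are thus of calls with at least 2 conversions, unlike the crosslinked counts of all calls set beside them. Positions with 2 conversions had at most 67, 68 and 52 reads in the 3 libraries. A deeply read mRNA is therefore listed only where it has several conversions. The 2 crosslinked libraries are not stated to be separate cultures, so an SD over them may be technical.

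The sequences that carry the results are given here as 29 nt of the sense strand, with the converted T as the capital. Coordinates are those of the deposited positions (ASM294v2), and the letters are those of the RefSeq nuclear chromosomes, in which every nuclear position of the 3 files was a T. The arg12 window holds the only member position called in both crosslinked libraries, the second met26 window holds the T of the start codon, and the others show, for each of the 6 genes with most conversions, a position with as many conversions as any in that gene. That position is the only such one in met26, glt1 and ilv5, while 3 were tied in arg4, 2 in ade1 and 9 in lys1, where the highest conversion share decided.
arg12, chrII:450156-450184, minus strand: ggtttgaagagtcgTggttgttacgaaac
met26, chrI:1480485-1480513, plus strand: ttcgtcgtgccgagTgggatgagtatctc
met26 start codon, chrI:1478614-1478642, plus strand: aaactatttgaaaaTggttaaatctgctg
glt1, chrI:3307183-3307211, plus strand: ctcctttgattgcaTtgggctgtatcatg
arg4, chrII:4043216-4043244, minus strand: agaaaacttggtcaTagcaccattatggt
ilv5, chrII:4087835-4087863, minus strand: gcttgttgactactTcaagaacgacactc
ade1, chrII:3142186-3142214, plus strand: ccattgttggttagTgctactgacggtgt
lys1, chrI:3740762-3740790, minus strand: gttgatgaaactctTacagccactgaaag

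Sites were found in most of the 31 mRNAs. Of the 31 genes, 29 had a sense site in crosslinked replicate 1 (52.4% of all protein-coding genes did), 23 in crosslinked replicate 2 (43.6%) and 3, namely ade4, leu1 and met26, in the control (1.21%). Those with a site in both crosslinked libraries numbered 23, or 74.2% against 29.9% of all protein-coding genes, and 17 had one with at least 2 conversions, or 54.8% against 8.06%. Replicate 2 added no gene to those of replicate 1. Only lys7 and arg11 had no site in either. Lys7 encodes the transferase that activates the aminoadipate reductase Lys1, and arg11 encodes the acetylglutamate kinase and reductase of arginine synthesis. With a minimum of 20 reads at a site, 13 of the 31 genes had one in both, against 5.87% of all protein-coding genes. These counts read RNA abundance, gene length and crosslinking together, and their parts were not tested.

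Summed over the 31 genes, crosslinked replicate 1 held 260 conversions (9431 reads), crosslinked replicate 2 held 147 (4469 reads) and the control held 8 (203 reads). Their share of nuclear conversions was 1.40% (Wilson 95% interval 1.24 to 1.58) and 1.38% (1.17 to 1.62) after crosslinking, a mean of 1.39% ± 0.0177 (SD, n = 2), and 0.904% (0.459 to 1.77) in the control. Both crosslinked shares lie inside the control's interval, but they include calls of 1 conversion, of which the control had 0. At sites with at least 2 conversions the mean crosslinked share was 1.75% ± 0.119 (SD, n = 2), close to the upper end of that interval. Of the control's 8 conversions, 4 came from 1 position in an ade4 intron, inside the small nucleolar RNA gene snoR58. The control share without that position was not computed, so these intervals do not settle whether the control differed. Per length the density was 1.46 and 0.915 sites per kb in the 31 genes, against 0.544 and 0.402 in the other 5082 protein-coding genes. The means were 1.19 ± 0.382 and 0.473 ± 0.10 sites per kb (SD, n = 2), and the lower value of the 31 genes lay above the higher value of the others. Without crosslinking the 31 genes were also denser, with 0.0416 sites per kb from 3 sites, 1 of them inside snoR58, against 0.00660 in the others. The density of conversions was 3.605 and 2.04 per kb in the 31 genes, against 0.960 and 0.579 in the others.

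Most member sites rested on more than a single converted read. Calls of 1 conversion in 3 reads made up 8 of 105 member sites (7.62%) in crosslinked replicate 1 and 8 of 66 (12.1%) in crosslinked replicate 2, against 53.6% and 70.1% of the sites of all protein-coding genes. The deposited occupancy divides the conversions by a whole number, read here as the depth of a reference library at that position, and at 276 of 276 positions shared by the crosslinked libraries this number was equal. The median reference depth was 566 and 648 at member sites, against 163 and 170 at sites of the other protein-coding genes. Among sites with at least 2 conversions this order turned, with medians of 652 and 787 at member sites and 736 and 1386 at the others. The most conversions at any member position were 7 for crosslinked replicate 1, 5 for crosslinked replicate 2 and 4 for the control, the last inside snoR58.

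**Figure D1:**
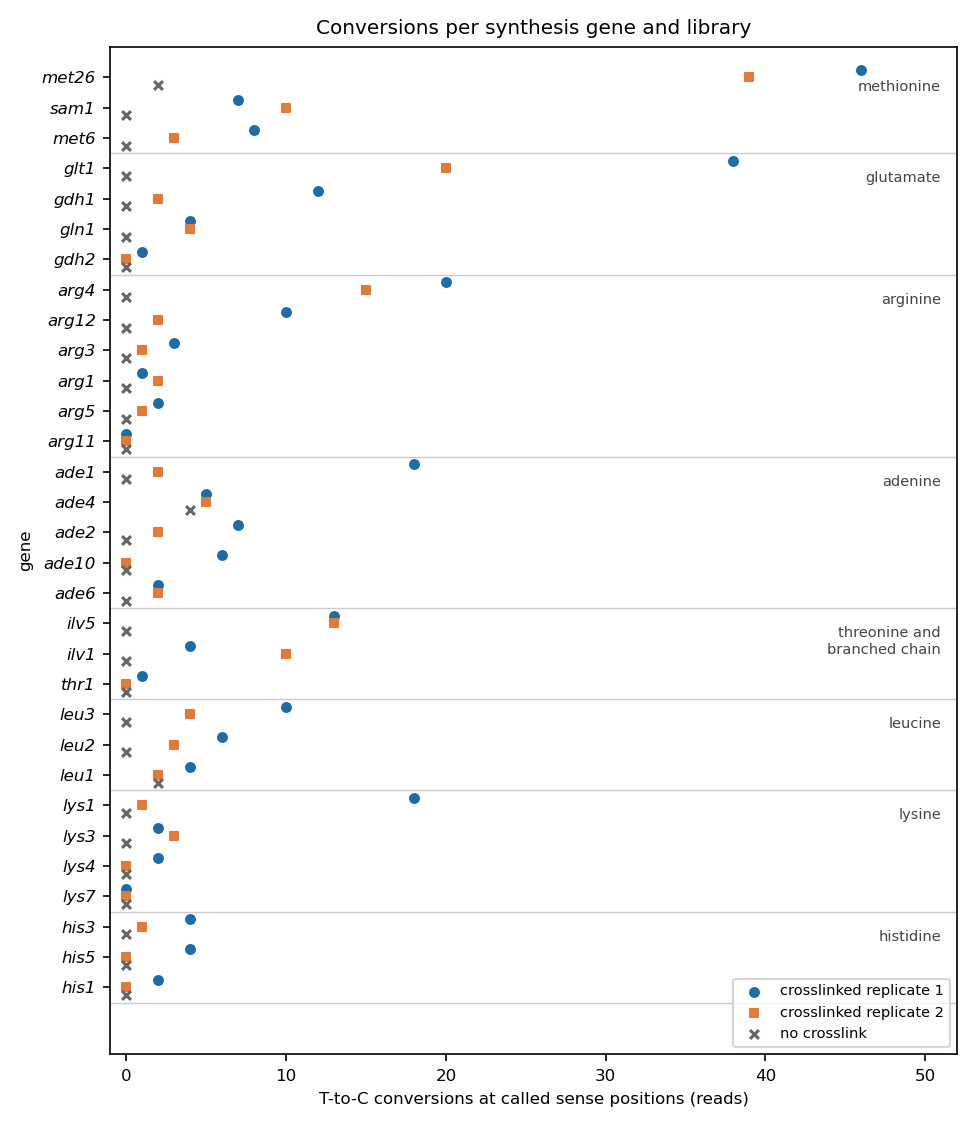
Conversions (reads, linear axis) summed over the called sense positions of each of the 31 genes, grouped by pathway, with 1 point per library. The points of met26 and glt1 lie farthest to the right in both crosslinked libraries, and only ade4, leu1 and met26 have a control point above 0.

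Methionine genes held the most conversions of any pathway. The 3 genes had 19 and 18 sites with 61 and 52 conversions in the crosslinked libraries, against 1 site with 2 conversions in the control. Their density was 2.60 ± 0.0992 sites per kb (SD, n = 2), above that of the other 6 named pathways in each library. The conversion share, which is the conversions over the reads at called positions, was 1.57% (1.23 to 2.02) and 2.32% (1.78 to 3.03).

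This density came largely from met26, which encodes methionine synthase (chromosome I, 1478398 to 1481172, plus strand). Crosslinked replicate 1 gave 12 sites with 46 conversions (3509 reads), crosslinked replicate 2 gave 12 sites with 39 conversions (2002 reads), and the control gave 1 site with 2 conversions (44 reads). It was thus high in both crosslinked libraries and held 17.7% and 26.5% of the conversions of the 31 genes. Its rank was 13 of 3376 protein-coding genes with a site after crosslinking. None of its positions was called in more than 1 library. Without met26, the methionine density was 1.61 and 1.38 sites per kb, a mean of 1.49 ± 0.162 (SD, n = 2). That was below adenine at 1.67 in replicate 1 and above the other 6 named pathways in replicate 2.

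In met26 the conversions were spread over the mRNA, with 2 to 6 at each position. The position with most, I 1480499, had 6 conversions in 420 reads, or 1.43% (0.656 to 3.08), in a tryptophan codon. The T of the start codon, chosen for mention after its value was seen, had 3 conversions in 216 reads (1.39%, 0.473 to 4.00) in crosslinked replicate 1. The neighbouring positions 1480591 and 1480592 each had 4 conversions, in 349 and 348 reads. Past the stop codon, 1480928 and 1480975 had 3 conversions each, in 88 and 45 reads of crosslinked replicate 1.

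The other methionine genes had fewer conversions. Sam1, S-adenosylmethionine synthetase, had 7 conversions in 234 reads in crosslinked replicate 1 and 10 in 221 reads in crosslinked replicate 2, from 3 and 5 sites. Met6, homoserine O-acetyltransferase, had 8 in 131 reads and 3 in 16 reads, from 4 sites and 1. Neither had a site in the control. The reference depth at met6 was low, with a median of 41 over its 5 sites. Its position II 4090839, 13 nt before the start codon, had 3 conversions in 49 reads where the reference depth was 21.

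**Figure D2:**
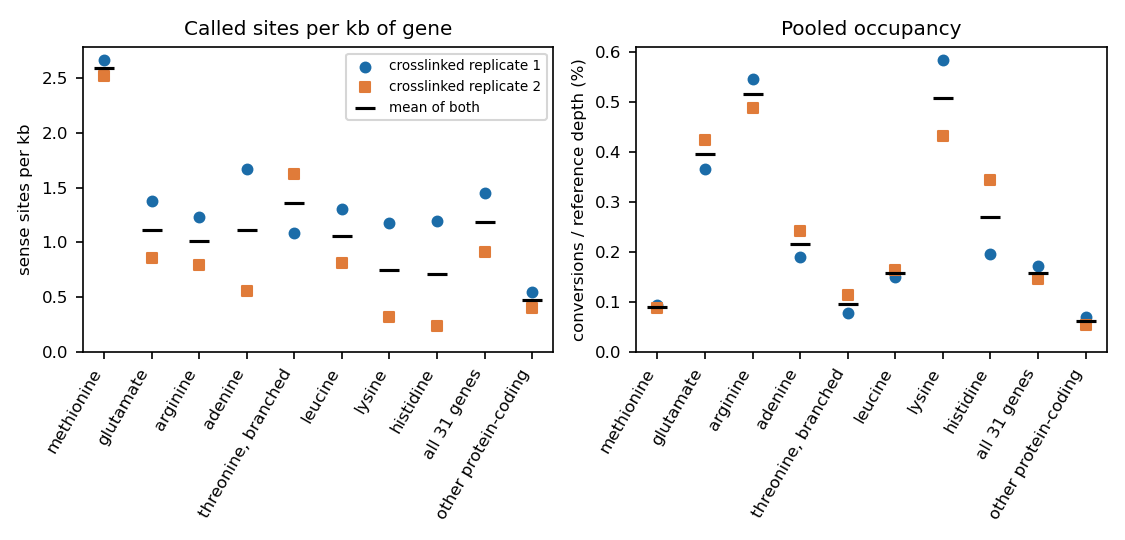
Called sense sites per kb of gene (left) and pooled occupancy, the summed conversions as a percent of summed reference depth (right), with a point for each crosslinked library and a bar at their mean. Methionine has the highest density and arginine and lysine the highest occupancy.

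Glutamate and glutamine genes came next by conversions, with 55 and 26 in the crosslinked libraries from 21 and 13 sites, against 0 sites in the control. Most belonged to glt1, glutamate synthase (I, 3302825 to 3310369, plus), which makes glutamate from glutamine and is the longest of the 31 genes at 7545 nt. Crosslinked replicate 1 gave glt1 13 sites with 38 conversions (1204 reads), and crosslinked replicate 2 gave it 10 sites with 20 conversions (417 reads). Both crosslinked values were thus second to those of met26 among the 31 genes. Per length it stood lower, with 5.04 and 2.65 conversions per kb, against 16.6 and 14.1 for met26.

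The reference depth set glt1 and met26 apart. The median over their sites was 237 for glt1 and 4577 for met26. The occupancy of glt1, its summed conversions as a percent of the summed reference depth, was 1.39% and 0.641%, against 0.0751% and 0.0804% for met26. Among 520 protein-coding genes with at least 5 sites in the crosslinked libraries, the median occupancy was 0.566% and the quartiles 0.157% and 1.15%. Glt1 ranked 170 and met26 434 by this measure, so glt1 lay between the median and the upper quartile and met26 below the lower quartile. Reads at the called positions were 0.441 and 0.134 per unit of reference depth in glt1, and 0.0573 and 0.0413 in met26.

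Gdh1, the NADP-dependent glutamate dehydrogenase that fixes ammonium, had 12 conversions in 235 reads and 2 in 38 reads, from 5 sites and 1. Gln1, glutamine synthetase, had 4 in 68 reads and 4 in 45 reads, from 2 sites in each. Gdh2, the NAD-dependent dehydrogenase that breaks glutamate down, had a single site of 1 conversion in 3 reads, in crosslinked replicate 1. The replicates thus lay close for gln1 and far apart for gdh1.

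**Figure D3:**
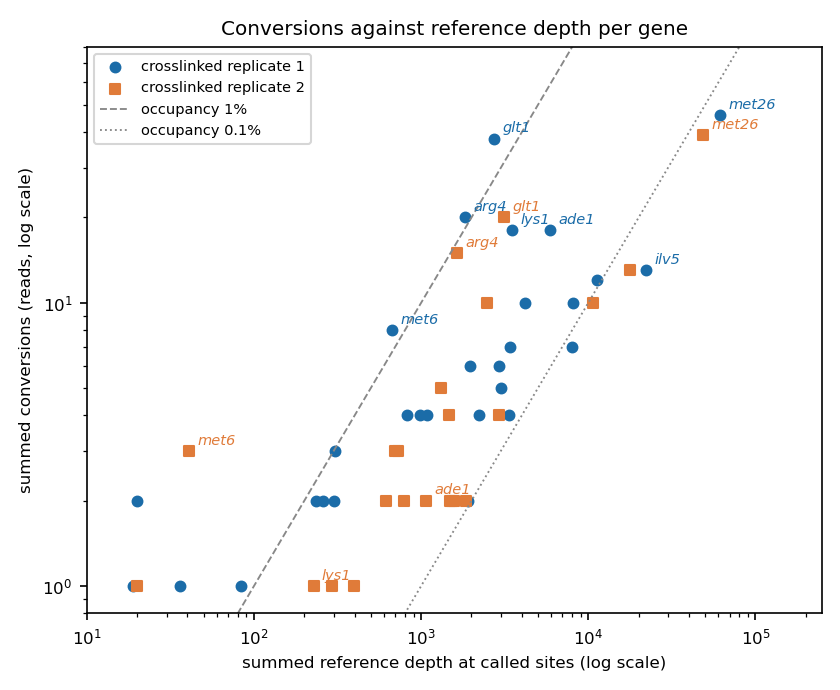
Summed conversions (log axis) against summed reference depth at called sites (log axis) for each gene in each crosslinked library; lines mark occupancies of 1% and 0.1%. Genes read deeply in the reference, such as met26 and ilv5, lie below the 0.1% line and arg4 near the 1% line, while glt1 lies above the 1% line in replicate 1 only.

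Arginine genes had 17 and 11 sites with 36 and 21 conversions after crosslinking and 0 sites in the control. The leading gene was arg4 (II, 4041439 to 4045331, minus), a subunit of the carbamoyl-phosphate synthase that serves arginine. Crosslinked replicate 1 gave it 9 sites with 20 conversions (451 reads), and crosslinked replicate 2 gave it 7 sites with 15 conversions (273 reads). Its occupancy was 1.098% and 0.921%, so the replicates lay close. The 9 sites of replicate 1 lay between 47.8% and 98.9% of the way along the coding sequence, and the 7 of replicate 2 between 6.69% and 95.6%.

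Arg12, argininosuccinate synthase, had 10 conversions in 455 reads in crosslinked replicate 1 and 2 in 23 reads in crosslinked replicate 2. Its position II 450170, the third base of an arginine codon, was converted in 2 of 52 reads (3.85%, 1.06 to 13.0) and in 2 of 23 reads (8.70%, 2.42 to 26.8). Compared by the Fisher exact test on their reads, the 2 libraries gave a two-sided p of 0.582 there and an adjusted p of 1. By that test 0 of 276 positions called in both crosslinked libraries passed (0.00%), and 16 had an unadjusted p below 0.05. The remaining arginine genes had 1 to 3 conversions in each crosslinked library. They were arg3, ornithine carbamoyltransferase, arg1, acetylornithine aminotransferase, and arg5, the other carbamoyl-phosphate synthase subunit.

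Adenine genes had 18 sites with 38 conversions in crosslinked replicate 1, 6 with 11 in crosslinked replicate 2, and 1 with 4 in the control. Ade1, which carries 2 enzyme activities of early purine ring synthesis, had 18 conversions in 367 reads from 8 sites in replicate 1 but 2 in 19 reads from 1 site in replicate 2. Ade2, adenylosuccinate synthetase, had 7 in 143 reads and 2 in 23 reads. Ade10, which completes inosine monophosphate, had 6 in 227 reads in replicate 1 and no site in replicate 2. All 3 were thus lower in replicate 2.

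Ade4, amidophosphoribosyltransferase, the entry enzyme of the pathway, had 5 conversions (105 reads) in crosslinked replicate 1, 5 (92 reads) in replicate 2 and 4 (144 reads) without crosslinking. An intron before its coding sequence holds the small nucleolar RNA gene snoR58. The control site, and 3 of the 5 conversions of replicate 2, lay inside snoR58, where reads of the intron and of the snoRNA cannot be told apart. In the coding sequence ade4 had 5 conversions in crosslinked replicate 1 and 2 in replicate 2, while the control had no site.

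Ade6, phosphoribosylaminoimidazole carboxylase, had 2 conversions in 18 reads in crosslinked replicate 1 and 2 in 6 reads in crosslinked replicate 2, with no site in the control. Its mRNA, from the ade6-M216 allele, thus had called sites in both, but the 2 of replicate 2 were single converted reads in 3. They lay at codons 328 and 456, and the site of replicate 1 at codon 461, which reads ATG.

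Leucine genes had 8 and 5 sites with 20 and 9 conversions after crosslinking, and 1 site with 2 conversions in the control. Leu3, 2-isopropylmalate synthase, which starts the leucine branch, had 10 conversions in 478 reads and 4 in 75 reads. Leu2, isopropylmalate dehydratase, had 6 in 117 reads and 3 in 52 reads. In crosslinked replicate 1 its conversions came from I 4440428 and 4440430, with 3 in 58 and 3 in 59 reads.

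Leu1, 3-isopropylmalate dehydrogenase, had 4 conversions (75 reads) in crosslinked replicate 1, 2 (8 reads) in replicate 2 and 2 (15 reads) without crosslinking. Its sites lay at codons 235 and 282 in replicate 1, 242 in replicate 2 and 255 in the control. The control count of leu1 was thus equal to that of replicate 2, although the control held 885 nuclear conversions against 10672, and no position was shared.

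The branched-chain enzyme ilv5, acetohydroxyacid reductoisomerase, had 13 conversions in 927 reads from 3 sites in crosslinked replicate 1 and 13 in 915 reads from 4 sites in crosslinked replicate 2. Per length it held 8.90 conversions per kb in each, behind only met26. Its occupancy was low, at 0.0590% and 0.0737%, with a median reference depth of 5351. Position II 4087849 had the most conversions of any member position, 7 in 467 reads (1.499%, 0.728 to 3.06). Ilv1, the catalytic subunit of acetolactate synthase, had 4 conversions in 89 reads and 10 in 141 reads, so it was higher in replicate 2. Thr1, homoserine kinase, had a single site of 1 conversion in 3 reads, in replicate 1.

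Lysine genes differed between the replicates, with 11 sites and 22 conversions in crosslinked replicate 1 but 3 sites and 4 conversions in crosslinked replicate 2. Lys1, the large aminoadipate reductase of 4374 nt, had 9 sites of 2 conversions each in 319 reads in replicate 1 and 1 site of 1 conversion in 3 reads in replicate 2. Lys3, saccharopine dehydrogenase, which makes lysine in the last step, had 2 conversions in 5 reads and 3 in 53 reads. Lys4, homocitrate synthase, which starts the pathway, had 2 in 43 reads in replicate 1 alone. Histidine genes had the fewest sites, with 5 sites and 10 conversions in replicate 1 and 1 site and 1 conversion in replicate 2. Of these, his1, ATP phosphoribosyltransferase, and his5, imidazoleglycerol-phosphate dehydratase, had 2 conversions (31 reads) and 4 (62 reads) in replicate 1 and no site in replicate 2. His3, histidinol-phosphate aminotransferase, had 4 (76 reads) in replicate 1 and 1 (3 reads) in replicate 2.

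By site density the order of the named pathways after methionine was glutamate at 1.12 ± 0.372, adenine at 1.11 ± 0.787, leucine at 1.06 ± 0.345, arginine at 1.01 ± 0.307, lysine at 0.750 ± 0.606 and histidine at 0.716 ± 0.675 sites per kb (SD, n = 2). The replicate values of these 6 overlapped, and the SDs include the difference between the libraries. Within each library glutamate (1.38 and 0.854), leucine (1.30 and 0.814) and arginine (1.23 and 0.797) kept this order. Lysine (1.18 and 0.321) and histidine (1.19 and 0.239) lay below them in both. Adenine was highest of the 6 in replicate 1 (1.67) and below arginine in replicate 2 (0.556). Without glt1 the glutamate genes gave 1.04 and 0.391, below leucine and arginine. These differences were not tested. By occupancy the order was another: arginine stood at 0.516% ± 0.0413, lysine at 0.507% ± 0.107, glutamate at 0.395% ± 0.0420, histidine at 0.270% ± 0.104, adenine at 0.215% ± 0.0367, leucine at 0.157% ± 0.0106 and methionine at 0.0906% ± 0.00403. In each library methionine was lowest of these 7 and leucine next. The methionine value rested on met26, since the other 2 genes gave 0.371% and 0.121%, above 4 of the other 6 pathways in replicate 1 and below all 6 in replicate 2. The glutamate value rested on glt1, since the other 3 genes gave 0.169% ± 0.0439. By conversion share the methionine genes were lowest of the 7 in both libraries, again through met26: sam1 and met6 together gave 4.11% (2.51 to 6.67) and 5.49% (3.23 to 9.16), intervals that overlap those of the other 6 pathways in both. The shares were 5.99% (3.99 to 8.91) and 7.14% (2.81 to 17.0) for lysine, 5.92% (3.25 to 10.5) and 33.3% (6.15 to 79.2, from 3 reads) for histidine, and 4.42% (3.24 to 6.01) and 7.86% (4.44 to 13.5) for adenine. They were 3.74% (2.72 to 5.14) and 6.18% (4.07 to 9.26) for arginine, 3.64% (2.81 to 4.71) and 5.20% (3.57 to 7.51) for glutamate, and 2.99% (1.94 to 4.57) and 6.67% (3.55 to 12.2) for leucine. The intervals of these 6 overlapped in each library, while that of methionine with met26 lay below those of glutamate, arginine, adenine and histidine in both, below that of lysine in replicate 1 alone and below that of leucine in replicate 2 alone. Thr1, ilv1 and ilv5 together gave 1.77% (1.12 to 2.77) and 2.18% (1.46 to 3.25), in the range of methionine. That value rested on ilv5, at 1.40% and 1.42%, while ilv1 gave 4.49% and 7.09% and thr1 33.3% from 3 reads in replicate 1. Only called positions enter these shares, and positions with 2 conversions had at most 67 and 68 reads in the crosslinked libraries. A share much lower than at such positions could therefore be listed only at deeply read positions, and the intervals do not rank the pathways. No test between pathways was made, because the genes of a pathway are not replicates.

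Occupancy followed the reference depth closely. Over the 29 genes with a site, Spearman's coefficient between the median reference depth and the occupancy was −0.974, as a description: the reference depth is also the denominator of the occupancy, and most sites had 2 or 3 conversions. Pooled over the 31 genes the occupancy was 0.171% and 0.145%, against 0.0691% and 0.0544% in the other protein-coding genes. Among sites with at least 2 conversions the median occupancy was 0.334% and 0.271% in the 31 genes, against 0.311% and 0.148% in the others. The conversion share was 2.76% (2.45 to 3.11) and 3.29% (2.81 to 3.85) in the 31 genes, 3.57% and 5.85% in the others, and 3.94% (2.01 to 7.58) in the control's 3 member sites. Of the control's 203 reads there, 144 were at the position inside snoR58. The lower share in the 31 genes depended on which calls were counted: the mean of both crosslinked libraries was 2.67% against 2.45% in the others at sites with at least 20 reads, and 2.90% in both sets at sites with at least 2 conversions.

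**Figure D4:**
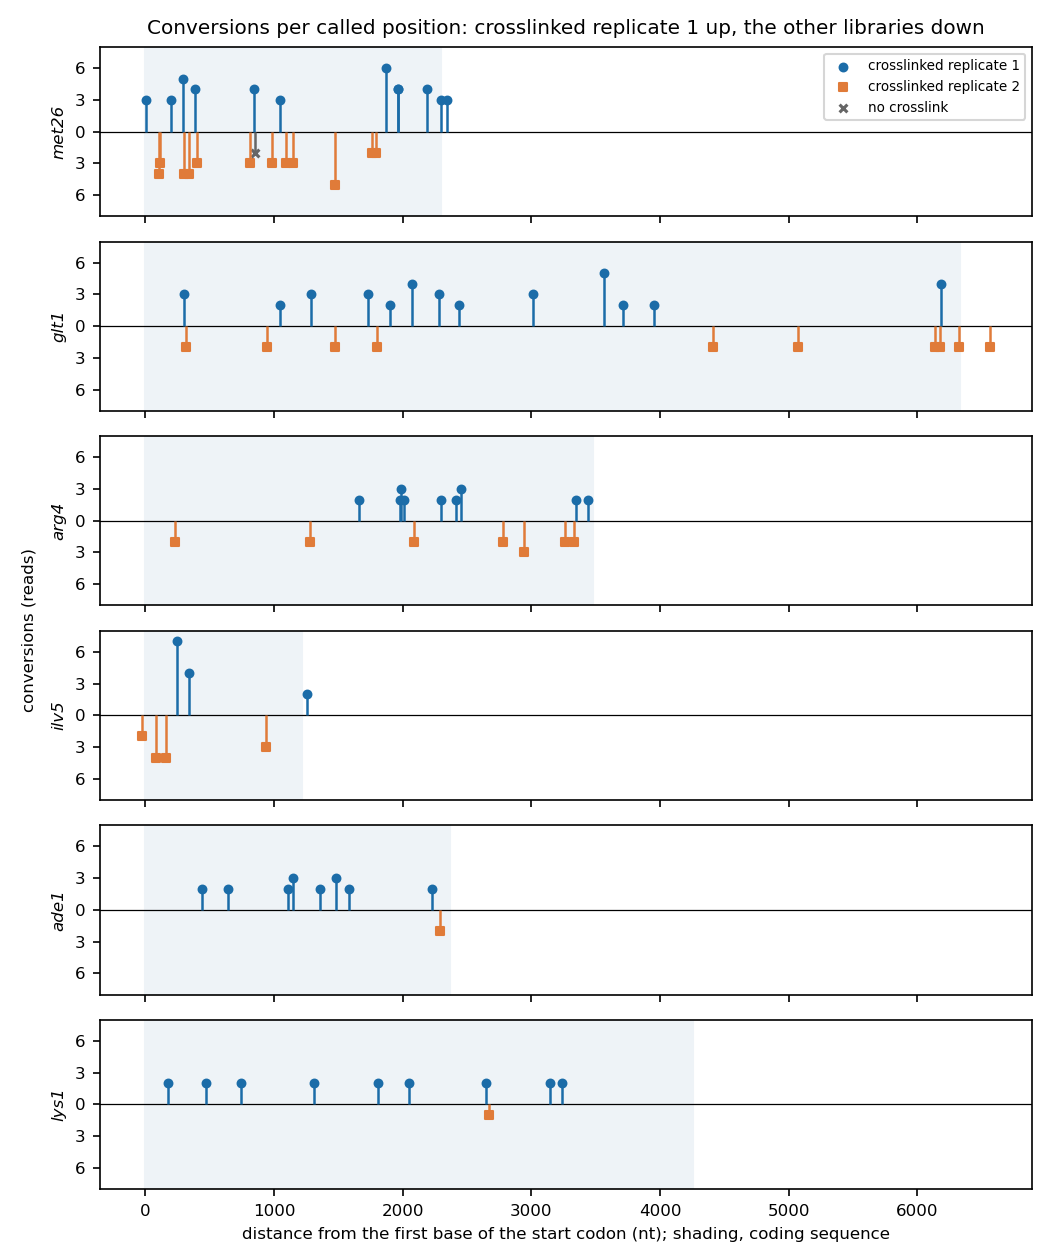
Conversions (reads) at each called position of the 6 genes with most conversions, against the distance in nt from the first base of the start codon; crosslinked replicate 1 points up, crosslinked replicate 2 and the control point down, and shading marks the coding sequence. Sites lie in several parts of the coding sequence of met26, glt1, ade1 and lys1, and replicate 2 has 1 site each in ade1 and lys1. The arg4 sites of replicate 1 begin at 47.8% of the coding sequence. The coding sites of ilv5, except that at 77.4%, lie between 6.91% and 27.9%.

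Along the mRNAs, most member sites lay in coding sequence. Replicate 1 had 89 of 105 sites there (84.8%), with 10 in the 3′ untranslated region, 3 in the 5′ untranslated region and 3 in introns. Replicate 2 had 57 of 66 there (86.4%), with 5, 3 and 1 elsewhere. Coding sequence held 72.9% of the T positions of these genes. In all protein-coding genes it held 78.3% and 80.1% of the sites and 64.4% of the T positions. The 3′ untranslated regions held 9.52% and 7.58% of member sites, against 14.6% of the T positions. Coverage of these parts by reads is not in the files.

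Few nucleotides were called in both replicates. The arg12 position was 1 of the 105 member sites of crosslinked replicate 1 (0.952%) and of the 66 of crosslinked replicate 2 (1.52%). In all protein-coding genes 64 positions were shared, or 1.12% and 1.52%. Within 20 nt of a site of replicate 1 lay 11 of 66 member sites of replicate 2 (16.7%), against 6.97% over all protein-coding genes, which hold fewer sites per kb. In met26 such pairs were 7 nt apart at 1478916 and 1478923 and 17 nt apart at 1479011 and 1479028. In glt1 they were 15 nt apart at 3303929 and 3303944 and 7 nt apart at 3309806 and 3309813. No member position was called both in the control and after crosslinking, so the conversion share could not be compared there.

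A G followed the converted T often. Among member sites with at least 2 conversions, the next base was G at 34 of 97 (35.1%) in crosslinked replicate 1 and 26 of 58 (44.8%) in crosslinked replicate 2, against 24.2% of all T positions of the 31 genes. Sites of the other protein-coding genes gave 36.8% and 36.2%, and the difference from them was not tested. The next base was T at 25.8% and 22.4% of member sites, against 36.5% of all T positions. In the windows above, the shared arg12 position, both met26 positions and the ade1 position have G next. RNase T1, used to trim the RNA, cuts after G, and its part in these shares was not tested. The base before the converted T was A at 39.2% and 29.3% of the same member sites, against 23.6% of all T positions. In the other protein-coding genes it was A at 41.6% and 38.1% of such sites.

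Other genes of the same pathways were taken from a list of 34 names, of which 30 matched 29 genes. Of these, 22 had a site in crosslinked replicate 1, 15 in crosslinked replicate 2, 14 in both (48.3%) and 0 in the control, and 7 had a site with at least 2 conversions in both (24.1%). Their density was 0.917 and 0.467 sites per kb, between those of the 31 genes and of the other protein-coding genes in both libraries. Ade3, phosphoribosylformylglycinamidine synthase, led with 12 conversions in 321 reads and 8 in 128 reads. Met10, a sulfite reductase subunit, had 13 and 4 conversions, ilv3, dihydroxy-acid dehydratase, 9 and 5, met11, a methylenetetrahydrofolate reductase, 6 and 4, and hom2, aspartate semialdehyde dehydrogenase, 7 and 2. Lys12, homoisocitrate dehydrogenase, equalled hom2 with 7 and 2.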

How the data were processed

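The authors' deposited files are 1 table of called positions per PAR-CLIP library. The deposited counts are, for each position, converted reads and all covering reads; the headers give single letters, and this meaning rests on the values. Each call carries a deposited p-value, at most 0.00499 in the files. The deposited occupancy is a ratio of conversions to a reference depth; no source used here says which library. Bowtie 1.1.1, SAMtools and build ASM294v2 are named per the submitters' processing notes, and the site caller is not given in any source used.

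Gene models came from the RefSeq annotation of ASM294v3. On its nuclear chromosomes 6560 of 6560, 4742 of 4742 and 127 of 127 called positions were a T, against 28.3% to 30.4% after a shift of 1 nt, so nuclear coordinates were used together. Mitochondrial and unplaced positions were left out. A site inside several genes on its strand counted for each.

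Tables were computed with Python 3.11.15, pandas 2.3.3, SciPy 1.17.1 and statsmodels 0.14.6. Intervals are 95% Wilson intervals on reads; no molecular identifiers were counted, so they cover counting error only. Positions called in 2 libraries were compared by the two-sided Fisher exact test on reads, adjusted by Benjamini-Hochberg over all such nuclear positions, with a threshold of 0.05, and this was tested on simulated data. The simulated positions had many more reads than the arg12 position, so they do not show the power of the test at such low counts. Libraries were not compared otherwise, since 2 against 1 allow no exact permutation p below 0.33. The 31 genes and the lists were chosen with earlier results of these data known. Named genes followed a rule: every gene is accounted for, with values per library where both crosslinked libraries had a site with at least 2 conversions and for leu1 and ade6. Named positions were those called in several libraries and a position with the most conversions in each of the 6 leading genes (ties went to the highest conversion share, then the lowest coordinate), and other pathway genes were the 5 with most conversions, with lys12 tied. The remaining positions named were chosen after their values were seen. Alternatives were a minimum of 20 reads or 2 conversions, leaving out control positions, noncoding parts, overlapping genes, each crosslinked replicate and met26, another denominator, and, for the Fisher test, 20 reads and Bonferroni adjustment.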

Additional observations from a re-analysis of the deposited data

Results flagged for a closer look

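Outside the sense strand, 1 position antisense to these genes was called in crosslinked replicate 1, against 0 in the control. It lay inside his5 on the strand of the non-coding RNA SPNCRNA.1500, at II 2267040, with 1 conversion in 3 reads. Crosslinked replicate 2 had 0 such positions.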

How the results depend on the processing

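Of 51 repeats of the 7 results, 41 stayed within the spread between replicates or within 1.5 times the count, and 10 moved. Many of the 41 could not have moved. Leaving out a replicate always shifts the mean of 2 libraries by less than their SD. Control positions held no crosslinked member site, so leaving them out could change only the share of nuclear conversions. The minimum of 2 conversions could not change the count that already required it, and the Fisher repeats tested 1 position. With at least 20 reads, 13 of the 31 genes had a site in both crosslinked libraries, against 5.87% of all protein-coding genes. Genes with a site of at least 2 conversions in both crosslinked libraries numbered 17 (against 8.06% of all protein-coding genes). They were 16 in coding sequence alone (against 6.91% of the other protein-coding genes) and 13 at 20 reads (against 5.65% of the others). Counted in 1 library they were 18 (replicate 2, against 10.5% of all protein-coding genes) and 26 (replicate 1, against 21.0%). The share of nuclear conversions was 1.74% at 20 reads, 1.75% at 2 conversions, 1.55% without control positions, 1.24% in coding sequence alone and 2.48% of the conversions at mRNA sites. Its SD of 0.0177 over 2 libraries is smaller than the counting error. Leaving out met26, chosen after the data were seen, gave a share of 1.08%, a conversion share of 4.00% and an occupancy of 0.220%. In sites per kb the 31 genes stayed above the other protein-coding genes at 20 reads (0.964 against 0.141), at 2 conversions (1.07 against 0.182) and in coding sequence alone (1.30 against 0.542). No paired analysis was possible because the only control is a single library and the samples with matching numbers were not analysed here. The conversion share of the 31 genes was below that of the others with all calls (3.02% against 4.71%), above it at 20 reads (2.67% against 2.45%) and level at 2 conversions (2.90% in both). Few conversions per site limit every value for single genes.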

Other observations

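Within the coding sequences of the 31 genes, the converted T was the third base of its codon at 47 of 89 sites in crosslinked replicate 1 (52.8%) and at 28 of 57 in replicate 2 (49.1%), against 48.3% of all coding T positions. It was the codon's first base at 16 and 9 of these sites. When each coding sequence was cut into 3 equal parts, the part before the stop codon held 24 of 89 sites in replicate 1 (27.0%) and 22 of 57 in replicate 2 (38.6%), against 33.7% of T positions, so the replicates lay on opposite sides of that share.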
